A study of Arabidopsis thaliana and Nicotiana benthamiana and Solanum lycopersicum with 20 samples.

Results

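Around the centromeres of the 5 Arabidopsis chromosomes, ChIP-seq summits of the transcription factors GLK1 and GLK2 were sparse, and the strongest of them lay beside genes of the photosynthetic membrane and of light perception. The regions described here are the peak summits that lay within 2 Mb of a centromere, taken as 15.09, 3.61, 13.59, 3.96 and 11.73 Mb on chromosomes 1 to 5 of TAIR10. They numbered 2718 of the 74553 summits in the 4 Arabidopsis lists (3.65%), and the 20 lists of the series, from 5 plant species, held 480034 summits. By library, 687 of 15576 summits of GLK1 replicate 1 lay there, 607 of 13934 of GLK1 replicate 2, 730 of 22900 of GLK2 replicate 1 and 694 of 22143 of GLK2 replicate 2. The choice used position alone.

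The study mapped where GLK1 and GLK2 bind in leaves. In Arabidopsis, the GLK1 (AT2G20570) or GLK2 (AT5G44190) coding sequence, fused at its end to GFP in the vector pK7FWG2, was put into plants mutant for both glk1 and glk2, and chromatin from fully expanded leaves was precipitated with an antibody to GFP. Each factor has 2 libraries, which the study describes as biological replicates from separate plants. The series description speaks of transient expression, whereas the methods describe transgenic plants. The transgenes were over-expressed and the plants were picked for a high protein level, so neither the amount of the factors nor the cells that make them need be those of wild-type leaves. Which control served for peak calling and how many reads each library held are not given by the lists. The exons of GLK2 held 3 and 2 summits in the GLK2 libraries and 0 in both GLK1 libraries. Those of GLK1 held 2, 1, 1 and 2 summits in GLK1 replicates 1 and 2 and GLK2 replicates 1 and 2. The highest fold changes, defined below, were 4.07 and 3.72 over GLK2 exons and 3.98, 2.47, 2.15 and 2.01 over GLK1 exons. The transgenes share these exon sequences, so native locus and transgene cannot be told apart as the source of these summits.

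GLKs are GARP-type transcription factors that activate nuclear genes for chlorophyll synthesis, light harvesting and chloroplast development. The DNA around plant centromeres is mostly heterochromatin, rich in satellites and transposons and poor in genes, and it can also carry pieces of organelle DNA that were copied into the nucleus. Genes are still found there, and some of them serve photosynthesis.

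The sequences below are the 150-base windows at summits that carry the results. Those of LHCB2.1, LHCB2.2, PSBQ-2 and CRY1 belong to the strongest sites, that of CH1 to the strongest site on chromosome 1, that of MRU1 to the site with the largest difference between the 2 factors, and the last to a block of mitochondrial-like DNA. They lie at chr2:1824442-1824591, chr2:1800446-1800595, chr4:2673244-2673393 and chr1:16851279-16851428 on the minus strand and at chr4:5723028-5723177, chr5:13689631-13689780 and chr2:3496299-3496448 on the plus strand, and all but the last run in the direction of the gene. Letters come from the RefSeq sequence of TAIR10.1, and windows are centred on summits of GLK1 replicate 1. Capitals mark the GLK motif RGATTYY (AGATT or GGATT followed by 2 bases that are each C or T) and the G-box CACGTG, on either strand.
LHCB2.1: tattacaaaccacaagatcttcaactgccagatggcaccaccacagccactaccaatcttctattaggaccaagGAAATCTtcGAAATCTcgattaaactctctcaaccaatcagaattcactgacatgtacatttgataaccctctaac
LHCB2.2: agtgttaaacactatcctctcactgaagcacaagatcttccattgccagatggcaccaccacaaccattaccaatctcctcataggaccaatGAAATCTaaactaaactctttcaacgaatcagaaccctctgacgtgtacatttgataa
PSBQ-2: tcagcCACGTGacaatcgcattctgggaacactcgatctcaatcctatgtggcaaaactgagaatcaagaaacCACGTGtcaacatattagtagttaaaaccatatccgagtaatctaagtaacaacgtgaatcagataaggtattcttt
CRY1: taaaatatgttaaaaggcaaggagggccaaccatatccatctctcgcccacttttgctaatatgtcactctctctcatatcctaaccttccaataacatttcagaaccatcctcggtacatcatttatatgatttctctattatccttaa
CH1: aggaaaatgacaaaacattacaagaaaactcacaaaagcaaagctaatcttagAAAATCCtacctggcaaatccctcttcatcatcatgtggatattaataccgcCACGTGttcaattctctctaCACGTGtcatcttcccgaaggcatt
MRU1: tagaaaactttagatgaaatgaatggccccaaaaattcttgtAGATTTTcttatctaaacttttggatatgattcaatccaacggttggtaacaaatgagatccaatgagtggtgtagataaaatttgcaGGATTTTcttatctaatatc
AT2G07739: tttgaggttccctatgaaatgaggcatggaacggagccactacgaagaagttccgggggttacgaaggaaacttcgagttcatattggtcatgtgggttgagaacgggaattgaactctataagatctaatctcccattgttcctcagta
RGATTYY occurred 2 times in the LHCB2.1 window, 2 times in the MRU1 window and once each in the LHCB2.2 and CH1 windows. CACGTG occurred 2 times in the PSBQ-2 window and 2 times in the CH1 window, and the CRY1 and AT2G07739 windows held neither. Of all consecutive 150-base windows of the chromosomes, 24.7% held RGATTYY and 1.75% held CACGTG on the rest of the chromosomes, against 23.2% and 1.1% near centromeres without the mitochondrial-like block.

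The first question was how densely the 2 factors bound near centromeres. Near centromeres the lists held 34.4, 30.4, 36.5 and 34.7 summits per Mb in GLK1 replicates 1 and 2 and GLK2 replicates 1 and 2. On the rest of the chromosomes they held 150.2, 134.4, 223.6 and 216.3 per Mb. Density was lower near the centromere in 4 of 4 libraries and in 20 of 20 combinations of library and chromosome. The mean log2 ratio was -2.38 ± 0.28 (SD, n = 4), a density of 0.192 of that elsewhere, with a range of 0.160 to 0.229. An exact sign-flip permutation test over the 4 libraries gave p = 0.125, two-sided, the smallest p that 4 libraries allow.

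A single place on chromosome 2 held a large share of these summits. A block of 270.7 kb, chr2:3239038-3509765, between -371 and -100.2 kb from the centromere, shares 95.9% of its 50-base words with the mitochondrial sequence. It makes up 1.35% of the length near centromeres and held 297 of the 687 summits of GLK1 replicate 1 (43.2%), 259 of 607 of GLK1 replicate 2 (42.7%), 194 of 730 of GLK2 replicate 1 (26.6%) and 190 of 694 of GLK2 replicate 2 (27.4%). That is 1097, 957, 717 and 702 summits per Mb, above the density of the chromosome arms in every library. In nuclear and mitochondrial DNA this sequence is nearly the same, and the lists held no rows on either organelle, so the block and the mitochondrial genome cannot be told apart as a source of these reads. The methods state that reads of low mapping quality were removed before peak calling, but not whether the organelle genomes were part of the mapping reference, and the part of this in the block was not tested. The main comparisons below are therefore given with and without the block.

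Without the block, 390, 348, 536 and 504 summits remained, at 19.8, 17.6, 27.2 and 25.5 per Mb. The density was then 0.125 of that elsewhere (range 0.118 to 0.132), lower in 4 of 4 libraries (exact sign-flip permutation test, p = 0.125). Single-copy 50-base words cover 79.3% of the length near centromeres and 96.7% elsewhere. Counting only windows without repeated words over single-copy length gave a density of 0.139 of that elsewhere.

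**Figure D1:**
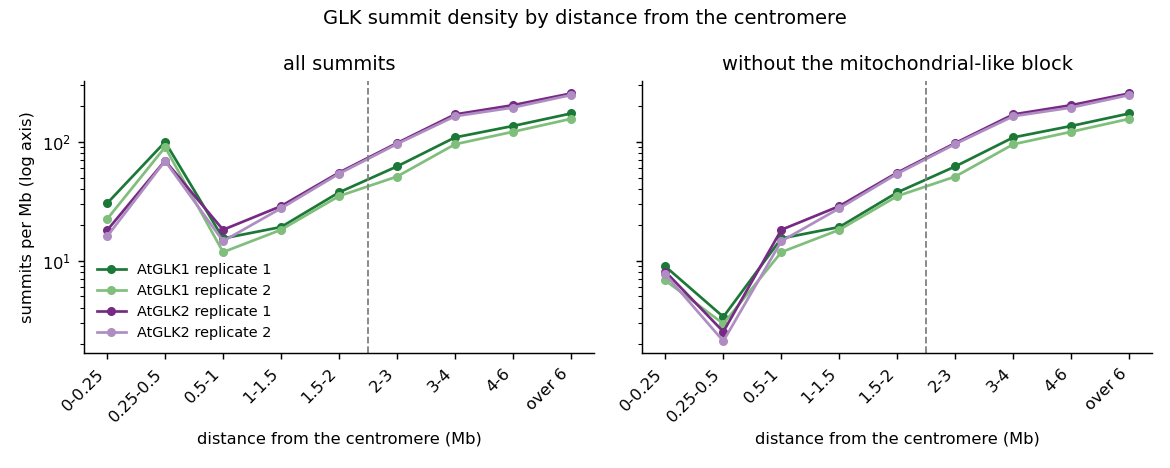
Summits per Mb (log axis) in classes of distance from the centromere (Mb), for the 4 libraries, with all summits and without the mitochondrial-like block. Points are single libraries and the dashed line marks 2 Mb. The rise between 0.25 and 0.5 Mb, to 69.2 to 100 summits per Mb, is absent without the block, where density climbs from 2.1 to 3.36 per Mb there to 35.0 to 55.2 per Mb between 1.5 and 2 Mb.

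Density rose with distance from 0.25 Mb outwards, and was somewhat higher again next to the centromere. Without the block it was 6.81 to 8.94 summits per Mb in the first 0.25 Mb, 2.1 to 3.36 from 0.25 to 0.5 Mb, 11.8 to 18.2 from 0.5 to 1 Mb, 18.2 to 28.8 from 1 to 1.5 Mb and 35.0 to 55.2 from 1.5 to 2 Mb. The first 0.25 Mb held 21, 16, 19 and 18 summits outside the block. Of these, 14, 13, 10 and 11 lay in a single stretch of 4.98 kb on chromosome 3. No step marked the 2 Mb boundary. Between 1.75 and 2 Mb the 4 libraries held 42, 40, 61.2 and 65.6 summits per Mb, and between 2 and 2.25 Mb 43.6, 36.8, 72.0 and 72.8. Of 200 bins of 100 kb, 73 held no summit in any library, 20 of them on chromosome 3, 17 on chromosome 1 and 8 on chromosome 2.

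The chromosomes differed. Chromosome 3 was the sparsest in every library, with 12.5, 12.3, 14.3 and 13.3 summits per Mb. Chromosome 4 was the densest once the block was set aside, with 28.0, 23.8, 42.5 and 38.3, against 23.1, 19.0, 28.4 and 26.5 on the rest of the centromeric part of chromosome 2. The fullest bin of chromosome 4, 1.4 to 1.3 Mb before the centromere, held 16, 13, 21 and 26 summits. On chromosome 3 the fullest bin was the last 100 kb before the centromere, with 14, 13, 10 and 12, nearly all within a stretch of 4.98 kb described further on. On chromosomes 1 and 5 the fullest bins lay 2 to 1.9 Mb and 1.8 to 1.7 Mb before the centromere, with 12, 12, 18 and 19 and with 7, 10, 13 and 12 summits.

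**Figure D2:**
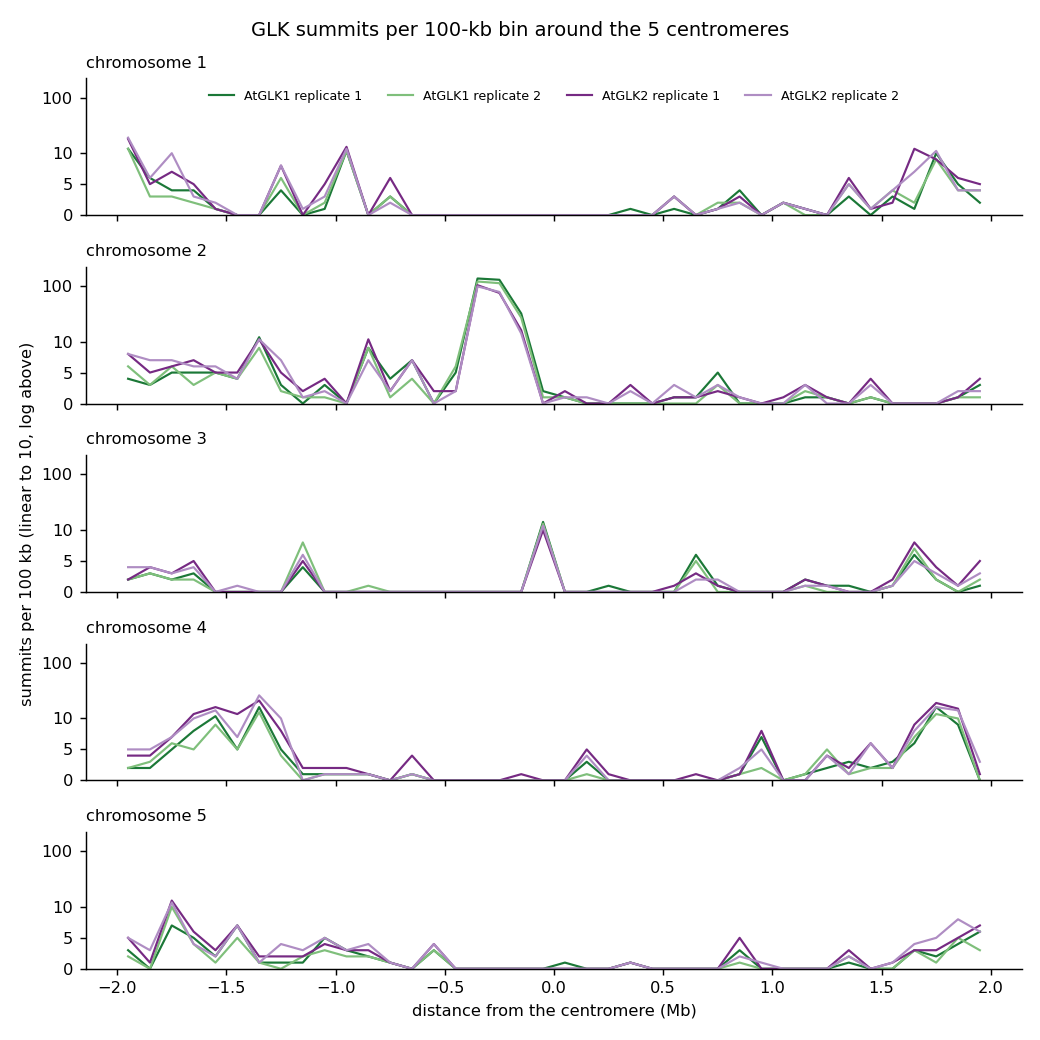
Summits per 100-kb bin against distance from the centromere (Mb, negative before it on the chromosome), for each chromosome and library (vertical axis linear to 10 and logarithmic above). The mitochondrial-like block stands out on chromosome 2, with up to 136 summits in 1 bin, and the peak beside the centromere of chromosome 3 reaches 14.

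The second question was how strong the binding was. Fold change is here the value that the peak caller gave to each summit, the enrichment of reads there over the local expectation. Its median near centromeres was 3.22, 3.01, 2.62 and 2.62, against 3.03, 2.75, 2.56 and 2.50 elsewhere, in GLK1 replicates 1 and 2 and GLK2 replicates 1 and 2. The median was higher near centromeres in 4 of 4 libraries, by 0.08 ± 0.04 (SD, n = 4) on the log2 scale (exact sign-flip permutation test, p = 0.125), and by 0.14 without the block, where the medians were 3.38, 3.10, 2.76 and 2.73. Summits in the top 10% of each list made up 9.17, 10.7, 12.5 and 12.8% of those near centromeres and 14.4, 17.0, 16 and 16.5% without the block. Medians within the block were 3.21, 2.88, 2.45 and 2.43, and its highest summits reached 16.4, 14.8, 8.57 and 7.27. On the scale of -log10 q, the caller's significance, the median was lower near centromeres in 3 of 4 libraries. It was 5, 5.22, 4.47 and 4.83 near centromeres and 5.23, 5.17, 5.22 and 5.21 elsewhere, but 6.64, 6.75, 5.83 and 6.20 without the block.

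The strongest sites near centromeres lay at genes of the photosynthetic apparatus and of light perception. Overlapping windows of the 4 libraries were merged into sites, 982 near centromeres, and 308 of these held a summit in all 4 libraries. LHCB2.1 (AT2G05100, chr2:1822990-1824480, minus strand) and LHCB2.2 (AT2G05070, chr2:1799234-1800472, minus strand) encode chlorophyll a/b-binding proteins of the photosystem II antenna. At LHCB2.1, at -40 bp from the gene start, fold change was 129.9, 106.8, 62.2 and 56.7 in GLK1 replicates 1 and 2 and GLK2 replicates 1 and 2. These values ranked 7, 6, 10 and 12 among all summits of their libraries. At LHCB2.2, at -52 bp, fold change was 92.6, 80.8, 54.8 and 55.9, ranks 16, 14, 15 and 13. In both promoters every GLK1 library was above every GLK2 library in fold change, and the 4 summits lay within 8 bp and 4 bp of each other. Their windows, shown above, hold 2 and 1 copies of RGATTYY.

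CRY1 (AT4G08920, chr4:5723651-5727268, plus strand) encodes a blue-light photoreceptor. Its site, at -540 bp, had fold changes of 123.9, 113.1, 59.7 and 49.6, ranks 8, 4, 12 and 17. PSBQ-2 (AT4G05180, chr4:2671523-2673243, minus strand), for an extrinsic subunit of the oxygen-evolving complex of photosystem II, had 100.4, 80.8, 35.8 and 35.9 at -76 bp. ATPC1 (AT4G04640), the gamma subunit of the chloroplast ATP synthase, had 44.8, 41.7, 39.5 and 36.6 at -20 bp. CH1 (AT1G44446, chr1:16848308-16851271, minus strand), the oxygenase that makes chlorophyll b, had 43.8, 43.5, 33.1 and 34.3 at -88 bp, and was by far the strongest site on chromosome 1. The GLK1 fold changes were above the GLK2 fold changes at each of these 4 genes, but ranks within the lists did not all follow. PSBQ-2 ranked 11, 15, 48 and 40, ATPC1 62, 50, 36 and 39 and CH1 66, 45, 55 and 43.

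TL29 (AT4G09010), a protein of the thylakoid lumen, went the other way, with 22.7, 18.7, 25.6 and 25.2 at an exonic summit 212 bp inside the gene, a difference that did not pass limma (adjusted p = 0.34). PSBX (AT2G06520), a small subunit of photosystem II, had 20.6, 15.7, 16 and 15.3 at 44 bp inside the gene, where the groups overlapped. CINV1 (AT1G35580), a cytosolic invertase that splits sucrose, had 11.8, 13.0, 15 and 14.7 in its promoter. AT3G43110, an uncharacterized protein, had the highest site on chromosome 3, with 20.6, 16.1, 12.9 and 11.7. MRU1 and a pseudogene site near CAS1, also among the 4 strongest of their chromosomes, are described further on. The remaining 8 were weaker. They lay nearest to COBL2, AT3G43430 and AT3G32980 on chromosome 3, to BZO2H3, AN3 and AT5G27930 on chromosome 5 and to AT1G36622 and AT1G42430 on chromosome 1, and ranged from 4.89 to 9.96. Of these 20 sites, 4 for each chromosome, 11 lay in promoters, 11 held RGATTYY, 3 held CACGTG, and 16 were more than 1 Mb from the centromere. A site held a motif if any of its merged windows did, so these counts cannot be set beside the shares of single windows given below.

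**Figure D3:**
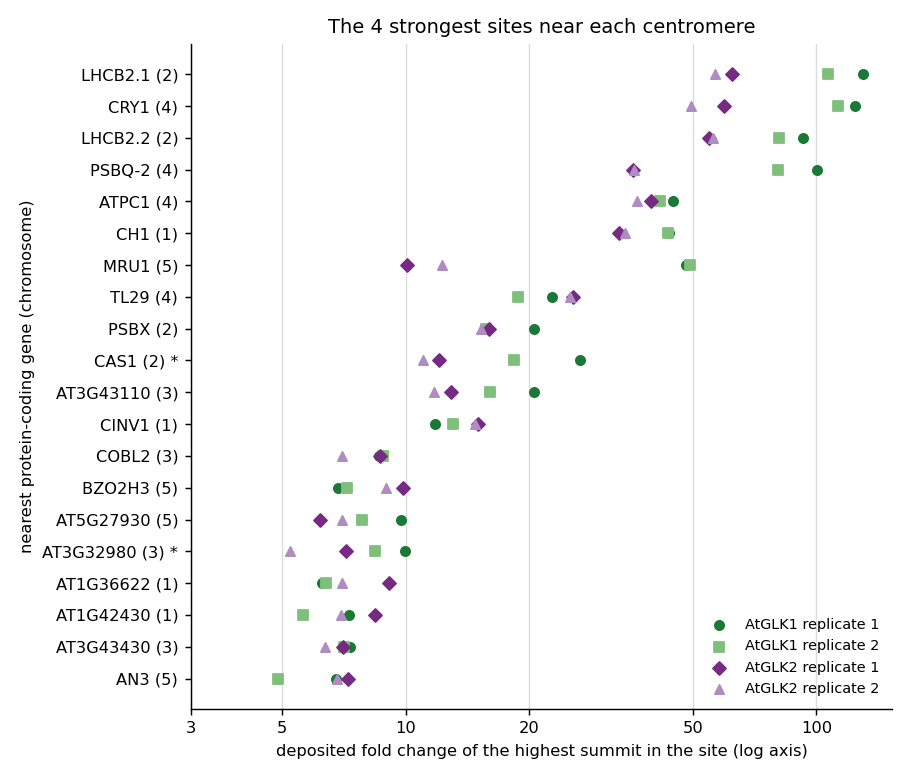
Deposited fold change (log axis) of the highest summit of each library at the 4 strongest sites of each chromosome near its centromere, named by the nearest protein-coding gene with the chromosome in parentheses. Points are single libraries and an asterisk marks repeated sequence. LHCB2.1, CRY1, LHCB2.2 and PSBQ-2 lead, between 80.8 and 129.9 in GLK1 and between 35.8 and 62.2 in GLK2, and MRU1 shows the widest gap between the factors.

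Genes with photosynthetic functions were found by their product names. The known loci ATPC1, TL29 and PGR5 were added near centromeres only, so the lists near and elsewhere followed unlike rules. Outside the block, 11 such genes start near a centromere. Of these, 10 held a summit in the promoter (1.5 kb) or gene body in at least 1 library, and 8 held one in all 4 libraries (72.7%). Among all 1220 protein-coding genes near centromeres outside the block, 11.5% held a summit in all 4 libraries. On the rest of the chromosomes the shares were 69 of 105 listed genes (65.7%) and 26.4% of all protein-coding genes. The listed genes near centromeres had median fold changes of 33.7, 30.2, 20.8 and 20.2, and the listed genes elsewhere 23.9, 21.3, 14.4 and 16.8. These medians cover only genes with a summit in the library, 8, 8, 10 and 10 near centromeres and 78, 76, 89 and 82 elsewhere.

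The 8 genes were LHCB2.1, LHCB2.2, PSBQ-2, ATPC1, TL29, PSBX, NPQ4 and GAPB. NPQ4 (AT1G44575), which encodes the PsbS protein needed for the quenching of excess light energy, had 5.30, 4.75, 9.05 and 7.77 in an exon. GAPB (AT1G42970), a subunit of the chloroplast glyceraldehyde-3-phosphate dehydrogenase, had 3.04, 2.24, 3.68 and 4.13 at its start, the weakest of the 8. PGR5 (AT2G05620), which acts in cyclic electron flow, held only a summit of 2.01 in GLK2 replicate 1 and another of 2.06 in GLK2 replicate 2. AT5G28500, a rubisco accumulation factor-like protein, had 2.96 and 2.90 in the GLK2 libraries and no summit in the GLK1 libraries. AT5G28450, a chlorophyll A-B binding family protein, held no summit in any library. Smaller summits accompanied the main one in 6 genes. LHCB2.1 had an exonic site of 2.73, 2.38, 3.27 and 2.3 in sequence with repeated words, LHCB2.2 one of 3.06 and 2.71 in GLK2, NPQ4 an intronic one of 2.45 and 2.34 in GLK2, and TL29 a promoter site of 3.13, 3.10, 4.48 and 5.57. PSBX had a promoter summit of 2.17 in GLK1 replicate 1 and an exonic one of 2.08 in GLK2 replicate 1. ATPC1 had one of 2.00 in GLK1 replicate 2 and one of 1.87 in GLK2 replicate 2.

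Binding closest to the centromere was found in non-photosynthetic genes and in repeated DNA. The nearest sites with a summit in all 4 libraries lay 516 kb from the centromere in an intron of SKS6 on chromosome 1 (fold change 4.18, 4.26, 3.16 and 3.56) and 113.7 kb away near RAP2.9 on chromosome 4 (7.56, 5.13, 6.19 and 7.13). On chromosome 5 the nearest lay 349.5 kb away, at the start of AT5G32450, an RNA-binding protein (4.02, 2.38, 3.78 and 3.28). On chromosomes 2 and 3 it lay in the block, in AT2G07739, and in a pseudogene 48.9 kb from the centromere. None of these 5 sites reached the values of LHCB2.1, LHCB2.2, PSBQ-2 or ATPC1.

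Most summits near centromeres were away from promoters. The share within 1.5 kb before a protein-coding gene start was 34.9, 35.9, 35.8 and 33.7% near centromeres and 51.5, 52.5, 51.9 and 51.2% elsewhere, lower in 4 of 4 libraries. The mean difference, near minus rest, was -16.7 ± 0.59 percentage points (SD, n = 4, exact sign-flip permutation test, p = 0.125), and -20.4 without the block. Promoters cover 9.31% of the length near centromeres and 35.2% elsewhere, and annotated pseudogenes, which in this annotation include transposon genes, cover 35.1% and 3.47%. Pseudogenes held 11.1, 9.88, 5.75 and 7.2% of the summits near centromeres, and 10, 8.33, 5.04 and 5.56% without the block. On the rest of the chromosomes they held 0.296, 0.188, 0.302 and 0.256%. Summits in promoters, exons and introns were assigned first, whereas the coverage counts all pseudogene bases, so summit share and coverage are not like for like. With 61.8 protein-coding genes per Mb near centromeres and 263.6 elsewhere, the number of summits per protein-coding gene near centromeres was 0.56, 0.56, 0.52 and 0.50 of that elsewhere without the block. With the block, where 65.7 genes per Mb were counted, it was 0.92, 0.91, 0.65 and 0.64.

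RGATTYY was found in 23.9, 25.2, 27.5 and 26.9% of the windows near centromeres and in 26.2, 28.5, 27.4 and 28.0% elsewhere, a mean difference of -1.63 ± 1.49 percentage points (SD, n = 4, exact sign-flip permutation test, p = 0.25). Without the block the sign turned. The shares were then 29.0, 31.3, 31.9 and 30.4%, above those elsewhere in 4 of 4 libraries, by a mean of 3.12 percentage points (exact sign-flip permutation test, p = 0.125). Within the block they were 17.2, 17.0, 15.5 and 17.9%, against 21.2% of all consecutive windows of the block. In windows 1 kb to either side of the summits near centromeres, without the block, the share was 25.3, 26.4, 26.9 and 26.4%. Beside summits on the rest of the chromosomes it was 24.4% in each library. The flanking sequence thus also held more RGATTYY near centromeres in 4 of 4 libraries. Its part in the difference at summits was not tested.

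CACGTG, the G-box bound by many light-signalling factors, stood further above the surrounding sequence. It was held by 7.71, 6.92, 8.9 and 7.93% of all windows near centromeres. Without the block, 12.8, 11.2, 11.2 and 10.5% held it, against 1.54, 1.01, 1.59 and 1.09% of the windows 1 kb beside them. On the rest of the chromosomes the shares were 12.3, 11.8, 9.51 and 9.52%. In the block they were 1.01, 1.16, 2.58 and 1.05%, close to the 0.831% of all its windows. This motif was added after the data were seen.

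The third question was whether replicates found the same summits. A summit was counted as recurrent where its 150-base window overlapped a window of the other replicate, that is, with summits at most 149 bases apart. Near centromeres 450 of 687 (65.5%), 443 of 607 (73.0%), 507 of 730 (69.5%) and 508 of 694 (73.2%) were recurrent, where 67.9, 74.3, 72.5 and 74.4% of all summits of GLK1 replicates 1 and 2 and GLK2 replicates 1 and 2 were. Against the rest of the chromosomes the mean difference was -2.09 ± 0.94 percentage points (SD, n = 4, exact sign-flip permutation test, p = 0.125). Without the block it turned to 1.74 percentage points, higher in 4 of 4 libraries (exact sign-flip permutation test, p = 0.125), with shares of 68.7, 77.0, 73.3 and 77.4%. Compared within quartiles of fold change, the mean difference without the block was -2.64 percentage points, so the order depends on how strength is treated. In the block the shares were 61.3, 67.6, 58.8 and 62.1%. There 19.3 to 28.5% of all positions lay within 149 bases of a summit of another library, against 0.503 to 0.766% of the positions near centromeres outside it and 3.80 to 6.24% of those elsewhere.

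**Figure D4:**
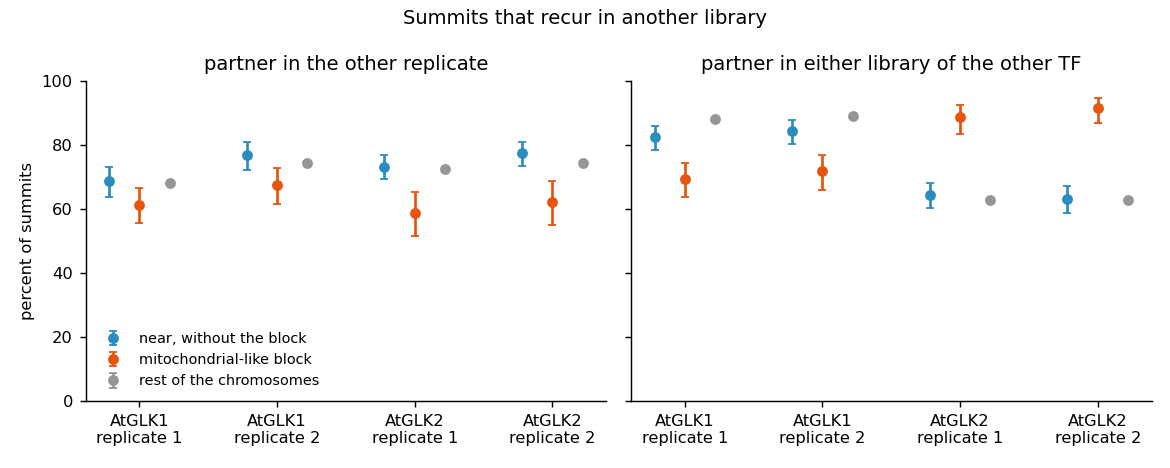
Percent of summits with a partner within 149 bases in the other replicate and in either library of the other transcription factor (TF), near centromeres without the block, in the block and on the rest of the chromosomes. Points are single libraries and bars are 95% Wilson intervals, which cover counting error only. In the block, 69.4 and 71.8% of GLK1 summits but 88.7 and 91.6% of GLK2 summits had a partner of the other TF, while outside it the order was the reverse.

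The overlap between the factors depended on which list was the starting point. Of the GLK1 summits near centromeres, 528 of 687 (76.9%) and 480 of 607 (79.1%) had a partner in either GLK2 library, where 87.7 and 88.8% of all GLK1 summits did. Of the GLK2 summits near centromeres, 517 of 730 (70.8%) and 492 of 694 (70.9%) had a partner in either GLK1 library, where 63.0 and 63.1% of all GLK2 summits did. Taken as the mean over both libraries of the other factor, the overlap near centromeres was 64.1 and 68.0% for GLK1 and 58.3 and 59.8% for GLK2, against 79.9, 81.2, 51.8 and 52.2% elsewhere. The difference was -14.5 percentage points for GLK1 and 7.04 for GLK2. It was thus negative in both GLK1 and positive in both GLK2 libraries. The mean over the 4 libraries was -3.74 ± 12.5 percentage points (SD, n = 4, exact sign-flip permutation test, p = 0.625). Without the block the differences shrank to -3.66 and 2.67. The GLK2 lists were longer than the GLK1 lists overall but shorter in the block, and the part of list length in these shares was not tested.

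Counted as sites, 308 of 982 near centromeres (31.4%) held summits of all 4 libraries and 367 (37.4%) of only 1, close to the 31.7% and 37.6% of the 26892 sites elsewhere. Sites of both GLK1 libraries and no GLK2 library numbered 35 (3.56%, 95% Wilson interval 2.57 to 4.92%, counting error only) near centromeres and 264 (0.982%) elsewhere, and 21 of the 35 lay in the block. Sites of both GLK2 libraries and no GLK1 library numbered 81 (8.25%) and 3308 (12.3%), with 3 of the 81 in the block. The strongest of the first kind lay in a pseudogene close to AT2G07565 (5.63 and 4.52) and at -2694 bp from the start of AT2G07215 (5.30 and 3.89). The AT2G07565 site lies in repeated, chloroplast-like sequence, a class defined further on, so its reads cannot be assigned to a single locus. The AT2G07215 site does not lie in repeated sequence. The strongest of the second kind lay in the promoters of AT4G08460 (4.80 and 5.99) and AT2G05360, an F-box associated protein (4.80 and 4.40). These fold changes were below those at LHCB2.1, LHCB2.2, CRY1 and PSBQ-2 but above those at GAPB, which held a summit in all 4 libraries.

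Differences in strength between GLK1 and GLK2 were tested at the 8827 sites of the genome with a summit in all 4 libraries. limma was run on log2 fold change, each library centred on its median, with Benjamini-Hochberg adjustment over all of them at 0.05. Of all sites, 680 were higher in GLK1 (7.70%) and 308 in GLK2 (3.49%). Near centromeres 40 of 308 were higher in GLK1 and 9 in GLK2. The kinds of sequence differed in this. Of the 204 single-copy sites, 15 were higher in GLK1 (7.35%) and 9 in GLK2 (4.41%), near the shares over all sites. Of the 77 sites in the block, limma called 13 higher in GLK1 and 0 in GLK2 (44 and 0 at an unadjusted p under 0.05), and 76 of 77 had a positive difference. Of 16 sites with chloroplast-like sequence, of which 5 also lie in the block, limma called 13 and 0 (16 and 0 at an unadjusted p under 0.05). With the fold changes of all summits of a site summed, limma called 0 of the 308 in either direction, and 62 and 21 had an unadjusted p under 0.05. Without GLK2 replicate 1 the counts over the 308 sites became 25 and 3, and without GLK2 replicate 2 they became 24 and 5.

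**Figure D5:**
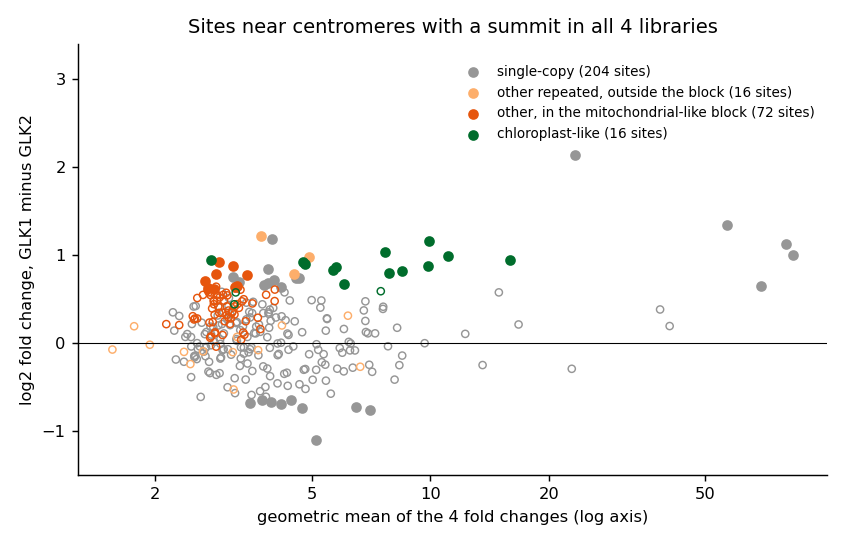
Log2 fold change of GLK1 minus GLK2 (limma, libraries centred on their medians) against the geometric mean of the 4 fold changes (log axis) at the 308 sites near centromeres found in all 4 libraries. Filled points passed the 5% false discovery rate and colours give the kind of sequence. The 16 chloroplast-like sites all lie above 0, as do 71 of the other 72 sites of the block, while the 204 single-copy sites scatter around 0.

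Among the single-copy sites, MRU1 (AT5G35490, annotated as mto 1 responding up 1), at -65 bp from the gene start, showed the largest difference. Its fold change was 48.1 and 49.2 in GLK1 and 10.1 and 12.3 in GLK2, a log2 difference of 2.13 ± 0.20 (SE, limma adjusted p = 4.7e-07). PSBQ-2 followed with 1.34 ± 0.19 (limma adjusted p = 6.9e-05). CRY1, LHCB2.1 and LHCB2.2 were also higher in GLK1, by 1.13, 1.00 and 0.65 on the log2 scale (limma adjusted p = 0.00043, 0.0013 and 0.026). Fold changes reached higher in the GLK1 lists (highest 210.2 and 181.4) than in the GLK2 lists (93.6 and 88.6). Centring on medians does not remove such a difference at the top of the lists, and its part here was not tested. By rank within its list, MRU1 stood at 58, 38, 336 and 222, and LHCB2.2 at 16, 14, 15 and 13. CH1 and ATPC1 did not pass, at 0.38 and 0.19 (limma adjusted p = 0.21 and 0.57).

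Sites higher in GLK2 differed less. The largest difference was at a site 3489 bp downstream of the start of AT1G35610, a cysteine/histidine-rich C1 domain protein, with 4.07, 2.99, 7.35 and 7.75 and a log2 difference of -1.10 ± 0.19 (limma adjusted p = 0.0006). GSL1 (AT4G04970), a callose synthase-like enzyme, had 6.57, 4.44, 9.50 and 8.88 in its promoter, and AT2G04690, a pyridoxamine 5'-phosphate oxidase family protein, had 4.66, 2.84, 6.10 and 6.15 in an exon. The log2 differences there were -0.76 and -0.74 (limma adjusted p = 0.014 and 0.020). At the exonic site of NPQ4 it was -0.73 and at the promoter site of TL29 -0.67 (limma adjusted p = 0.014 and 0.029), so 2 of the photosynthesis genes had sites higher in GLK2. Both GLK2 libraries were above both GLK1 libraries at each of these 5 sites.

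The strongest repeated sites lay in chloroplast-like sequence, but this class was added after those sites were seen, so their place in it is no test. A window was called chloroplast-like where at least 50% of its 20-base words occur in the chloroplast sequence. Near centromeres there were 22 such sites, of which 16 held a summit in all 4 libraries (72.7%). On chromosome 3, chr3:13536487-13541462, a stretch of 4.98 kb that lies 53.5 to 48.5 kb from the centromere, carries pseudogenes annotated as remnants of an ATPase subunit (AT3G33000), of ribosomal protein S2 (AT3G33002) and of an RNA polymerase subunit (AT3G33004). It held 14, 13, 10 and 11 summits, with medians of 4.98, 5.77, 2.91 and 3.74. All 9 of its sites found in every library had a positive GLK1 minus GLK2 difference, and 7 passed limma. One of the 9, with fold changes of 5.79, 5.52, 2.35 and 2.53, had a log2 difference of 1.22 ± 0.19 (limma adjusted p = 0.0002), the third largest of the sites higher in GLK1, although its own window fell below the 50% limit.

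The strongest chloroplast-like site lay in a pseudogene 14213 bp from the start of CAS1, a sterol synthesis gene, on chromosome 2, with 26.5, 18.3, 12.0 and 11. In the block, AT2G07739, annotated as a Ycf1 protein and shown above, had 16.4, 14.8, 8.57 and 7.27. AT2G07732, annotated with the catalytic domain of the large subunit of Rubisco, had 12.9, 9.28, 5.21 and 5.52. Both names are those of chloroplast genes. At all 3 sites the GLK1 libraries were above the GLK2 libraries, with log2 differences of 0.94, 0.99 and 1.04 (limma adjusted p = 0.0027, 0.0014 and 0.0011). The share of organelle DNA in each library was not measured here, and its part in the difference between the factors was not tested.

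Across the 308 sites, fold changes of replicates went together more closely outside the block. As a description over sites of shared libraries, Spearman's rho between replicates was 0.84 for GLK1 and 0.85 for GLK2 over the 231 sites outside the block. Over its 77 sites rho was 0.29 and 0.45. Between libraries of different factors it was 0.67 to 0.72 outside the block and 0.33 to 0.47 within it. Fold changes also spanned a narrower range in the block. Over all summits of GLK1 replicate 1, the lower and upper quartiles were 2.73 and 3.70 there, against 2.57 and 4.84 near centromeres outside it. A narrower range can lower rho, and its part here was not tested.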

How the data were processed

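The data were 4 lists of ChIP-seq peak summits from Arabidopsis leaves, 2 libraries each for GLK1 and GLK2. Per the labels, the authors mapped reads to TAIR10 with Bowtie2 2.3.2, handled them with SAMtools and called peaks with MACS2 2.2.1. Per the methods, unmapped reads, reads of low mapping quality and duplicates were removed first; the control is not given in the sources used here. Each deposited row is a summit with a fold enrichment (a ratio to the local expectation) and a deposited -log10 q-value. The deposited start, end and summit offset (other columns) gave its position. The MACS2 score column and the 16 lists of other species were not used.

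Summits were widened to 150-base windows and placed on the RefSeq annotation of TAIR10.1, whose chromosome lengths no summit exceeds. Promoters were 1.5 kb before protein-coding gene starts. Words of 50 bases were counted over nuclear and organelle sequences. The block was the longest run of nuclear words shared with the mitochondrial sequence, in which neighbouring shared words lay at most 5 kb apart. Each library was compared near against far from centromeres, and the 4 differences were tested by exact sign-flip permutation, two-sided. For GLK1 libraries against GLK2 libraries an exact permutation cannot go below p = 0.333. Sites found in all 4 libraries were tested with limma 3.58.1 (R 4.3.3); other steps used Python 3.11.15 with pandas 2.3.3 and scipy 1.17.1. The limma step and the overlap step were tested on simulated data. Intervals are 95% Wilson and cover counting error only; the study states read depth only as a range over the Arabidopsis libraries, and the depth of each one is not in the lists, which limits every comparison of list length.

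Named sites were the 4 strongest and the nearest to the centromere per chromosome, the 3 largest limma differences each way, the 2 strongest of each factor alone, those of the photosynthesis list and the fullest 100-kb bins. Sites picked outside this rule were chosen after their values were seen. The members and lists were chosen with earlier results of these data known. Alternatives covered distance, q-value, repeats, window overlap, scaling, and leaving out each library. They also included runs without the block or on single-copy sites, which were added after the data were seen.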

Additional observations from a re-analysis of the deposited data

Results flagged for a closer look

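The overlap with the other factor moved in opposite directions in the 2 groups of libraries. Near minus rest, it was negative in both GLK1 libraries (mean -14.5 percentage points) and positive in both GLK2 libraries (mean 7.04), a gap of -21.6 percentage points between the groups. An exact permutation test of 2 against 2 libraries gave p = 0.333, the smallest it can give. Without the mitochondrial-like block the means were -3.66 and 2.67. The part of the block and of list length in this gap was not tested.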

How the results depend on the processing

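Density and promoter share near centromeres kept their direction under all 13 and all 12 alternatives. The fold change difference kept it under 10 of 11 and turned to -0.10 (log2) with -log10 q in place of fold change. Recurrence turned to 0.15 percentage points in windows without repeated words and to 1.74 without the block. The RGATTYY difference turned to 3.74 in windows without repeated words, to 3.12 without the block and to 0.44 with GATTCC as the motif. The mean overlap difference ranged from -7.73 to 0.70 when each library was left out, positive only without GLK1 replicate 1; the cause was not tested.

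The limma counts near centromeres (40 GLK1-higher, 9 GLK2-higher) were 25 and 12 with quantile normalization, 24 and 0 within 1 Mb, 53 and 25 within 3 Mb, 15 and 9 at single-copy sites, and 24 to 40 and 3 to 11 with 1 library left out, where the lone library of a factor is assumed to vary like the others (25 and 3 without GLK2 replicate 1, 24 and 5 without GLK2 replicate 2). Within 1 Mb, 3 sites were GLK2-higher at an unadjusted p under 0.05. With the sum of fold changes in a site, limma called 0 and 0, and 62 and 21 had an unadjusted p under 0.05; summing counts every summit of a site. With a replicate block the counts were 44 and 11; deviations of same-numbered libraries correlated at r = 0.04 over 8827 sites, so the numbers did not pair the libraries.

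With 2 libraries per factor and no read counts, differences between the factors in list length, and so in overlap, cannot be separated from depth. Repeated windows cannot be assigned to 1 locus.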

Other observations

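Genes annotated in the block often held a summit, though its reads cannot be told apart from mitochondrial ones. Of the 94 protein-coding genes annotated there, 69 (73.4%) held a summit in the promoter or gene body in at least 1 library and 44 (46.8%) in all 4 libraries. Outside the block these shares were 25.6% and 11.5% of the 1220 genes near centromeres, and on the rest of the chromosomes 53.0% and 26.4% of 26130 genes. The block holds 347.2 protein-coding genes per Mb and promoters cover 42.9% of it, against 61.8 and 8.85% near centromeres outside it. The part of summit density and gene density in these shares was not tested. The median of the highest fold change per gene with a summit was 3.70, 3.64, 2.76 and 2.81 in the block and 3.86, 3.51, 3.01 and 3.0 outside it, in GLK1 replicates 1 and 2 and GLK2 replicates 1 and 2.

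Exons held 23.6, 23.4, 27.9 and 29% of all summits near centromeres, 25.4, 25.9, 31.9 and 31.2% of those outside the block and 22.9, 21.4, 25.3 and 25.1% of those on the rest of the chromosomes. Summits with chloroplast-like windows were rare far from centromeres, with 2 in each library, against 13, 15, 9 and 7 near centromeres outside the block. Sequence shared with the chloroplast measured 17.1 kb near centromeres outside the block and 47.7 kb on the rest of the chromosomes. Per kb of it, GLK1 replicates 1 and 2 and GLK2 replicates 1 and 2 held 0.76, 0.88, 0.53 and 0.41 such summits near centromeres outside the block. On the rest of the chromosomes each library held 0.042 per kb. How much of this length could give chloroplast-like windows was not tested. These values are descriptions without a test.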
